A study of Mus musculus with 2 samples.

Results

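Retinoid synthesis and handling genes were followed in the endometrium of pregnant mice, collected on day 3. The genes were chosen by name: Stra6, Rdh1, Rdh10, Dhrs3, Aldh1a1, Aldh1a2, Aldh1a3, Crabp2 and Rarb, which are 9 of the 19070 genes with probes, and all 9 had a row in both libraries. They were picked with results of these data in view, because Aldh1a1 moved against genes of the uterine gland between the libraries, so all of the values are descriptions and none was tested.

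There was 1 library from Erbb3 f/f females, the control, and 1 from Erbb3 d/d females, described by the study as lacking Erbb3 in the stroma. Erbb3 is a receptor of the ErbB family. The Cre driver, the age and number of the mice and the strain are not given in the sources used here. About 25 mg of endometrium was fixed and then dissociated, and transcripts were read with Chromium Flex probes, which bind chosen stretches of each transcript. Levels are CPM, the unique molecular identifiers (UMIs) of a gene divided by all UMIs of a cell group and scaled to 1000000. Probe pairs differ in yield between genes, so levels are compared for the same gene and not between genes.

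Retinoic acid is made from vitamin A in cells that take up retinol and oxidise it in steps. STRA6 brings retinol into the cell, retinol dehydrogenases such as RDH10 oxidise it to retinal, DHRS3 reduces retinal back to retinol, and the ALDH1A enzymes oxidise retinal to retinoic acid. CRABP2 carries retinoic acid to nuclear receptors such as RARB, and in the uterus the pathway is known for its part in stromal decidualisation and epithelial differentiation. In the GENCODE M21 annotation of GRCm38 all 9 are protein-coding genes. Aldh1a1 lies on chromosome 19 from 20492715 to 20643465, Aldh1a2 on chromosome 9 from 71215789 to 71296243 and Aldh1a3 on chromosome 7 from 66390890 to 66427517. Stra6 lies on chromosome 9 from 58063788 to 58153996, Rdh1 on chromosome 10 from 127759721 to 127768297 and Rdh10 on chromosome 1 from 16105774 to 16133734.

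The 2 libraries held 5503 f/f and 1830 d/d cells after filtering, with 5517795 and 1712695 UMIs and medians of 809 and 764.5 UMIs per cell. No whole barcode was shared by the libraries, but this was fixed beforehand, because the last 8 bases were 1 sequence per library. The first 16 bases were shared in 158 cases, before filtering. Cells were assigned by marker genes, each cell going to the type with the most marker UMIs. This gave 1743 f/f and 569 d/d epithelial cells, and 1624 and 420 stromal cells, while 2757 cells of both libraries were left without a type. The other 5 types held 88 or fewer cells each in a library. Epithelial markers were at 4233 and 4350 CPM in the epithelial cells and at 478 and 660 CPM in the stromal cells (f/f and d/d). In the stromal cells the stromal markers were at 9115 and 8846 CPM, and myeloid markers were at 172 and 289 CPM. Between the libraries the stromal cells also differed in median mitochondrial share (1.30% and 3.12%), in cycling cells (7.02% and 17.9%) and in lymphoid markers (29.6 and 106 CPM). Cycling cells made up 23.5% (f/f) and 60.5% (d/d) of the epithelial cells. The same genes were also read in 13 clusters made without the 9 genes, because only 1261 of the 2044 stromal cells lay in the main stromal-like cluster, which was led by Pth1r and Col7a1. The clusters led by Lrp2 (976 f/f and 15 d/d cells) and by Syn2 (866 and 69) came mostly from the f/f library and may mark that library rather than a cell type.

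Across the epithelial cells Aldh1a3 and Aldh1a1 were higher in the d/d library, Rdh1 was lower, Stra6 and Dhrs3 were higher by less than 2-fold, and Rdh10 was close to level. Among stromal cells Aldh1a2 was higher in the d/d library by 1.09 on the log2 scale, and Stra6 was lower. Of the 9 genes, 7 reached 20 UMIs over both libraries in the epithelial cells, and another set of 7 did so in the stromal cells. A log2 ratio of 1 or more in size was reached in epithelial cells by Aldh1a1 and Aldh1a3 upward and by Rdh1 downward. All measured genes gave 15% past that size, 6.96% higher and 8% lower. In stromal cells Aldh1a1 and Aldh1a2 passed it upward and Rdh1 downward, each only under some of the settings. With clusters in place of marker assignment Aldh1a2 (0.96) and Rdh1 (-0.75) fell short of it. With cells thinned to 500 UMIs Aldh1a1 (0.94) and Rdh1 (-0.87) did. Among all measured genes 11.2% passed it in stromal cells, 5.31% higher and 5.84% lower. Because the genes were picked from this contrast, nothing is read from these shares. The median log2 ratio of all measured genes was -0.02 in epithelial and -0.04 in stromal cells. How far animals of a genotype differ is unknown from 1 library each, and every interval given is a 95% interval that covers counting error only.

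**Figure D1:**
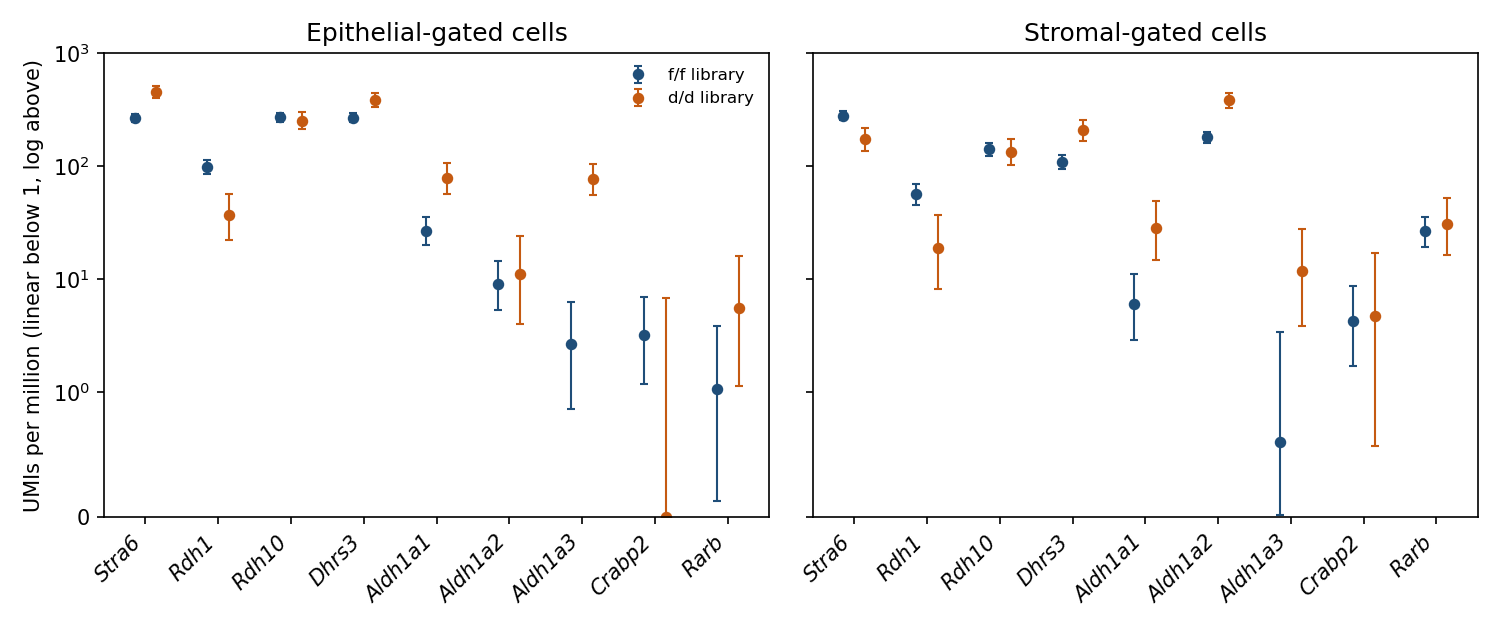
Levels of the 9 genes in CPM (vertical axis, linear below 1 and logarithmic above) in epithelial and stromal cells of the f/f (blue) and d/d (orange) library. Points are summed UMIs and bars are exact 95% Poisson intervals; Aldh1a3 in epithelial cells stands at 2.67 in the f/f and 76.6 in the d/d library.

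**Figure D2:**
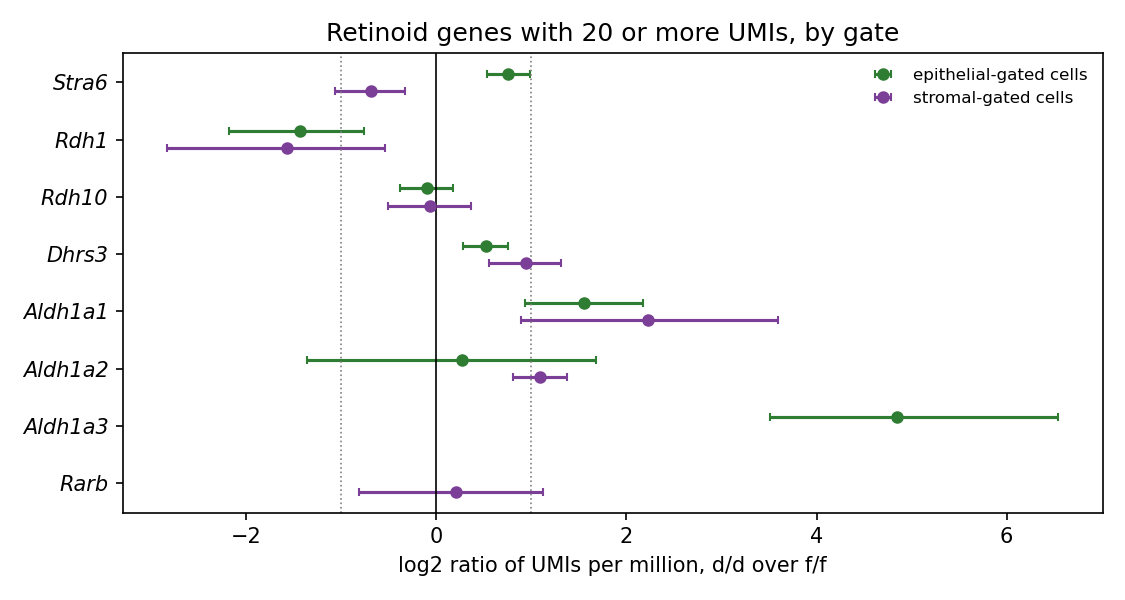
Log2 ratio of CPM in d/d relative to f/f (horizontal axis), for genes that reached 20 UMIs in the libraries together, in epithelial (green) and stromal (purple) cells, with 95% intervals for counting error; dotted lines mark -1 and 1. Stra6 lies on opposite sides of 0 in the epithelial and stromal cells, and Rdh1 lies below 0 in both.

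Stra6, the membrane receptor that takes up retinol from its plasma carrier, had 500 UMIs (266.6 CPM) in f/f and 247 UMIs (450.7 CPM) in d/d epithelial cells. The log2 ratio, here always d/d relative to f/f where a pair of libraries is compared, was 0.76 (0.53 to 0.98). In stromal cells the counts were 460 UMIs (277 CPM) and 73 UMIs (172 CPM), a log2 ratio of -0.69 (-1.07 to -0.33). Stra6 was therefore level between the 2 cell types in the f/f library, with a stromal over epithelial log2 ratio of 0.06 (-0.13 to 0.24), and lower in the stromal cells of the d/d library, at -1.39 (-1.79 to -1.01). In the main stromal-like cluster (1176 and 203 cells) Stra6 was at 349 and 292 CPM. The log2 ratio there was -0.26 (-0.75 to 0.20), an interval that includes 0, so the lower stromal level was not resolved in the cells with the clearest stromal profile.

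Within the epithelium Stra6 differed between the clusters. In the f/f library it stood at 298, 271 and 290.5 CPM in the epithelial-like clusters led by Lrp2, by Ltf and by the mitotic gene Tpx2. It was at 57.2 CPM (44 UMIs) in the Syn2 cluster. The cluster led by Rrm2, a gene of DNA synthesis, lay between, at 139.8 CPM (11 UMIs). The Syn2 cluster carries the gland genes Syn2, Gulo, Dab1 and Cxcl15 and is called gland-like here. The gland-like cluster was below the other epithelial-like clusters by a log2 ratio of -2.31 (-2.79 to -1.87). In the d/d library the difference was -2.80 (-5.08 to -1.24), on 3 UMIs in the gland-like cluster. Dividing f/f epithelial cells by gland markers gave -1.67, and -0.49 without Syn2, Gulo and Dab1 among the markers. The d/d library had more Stra6 in the Tpx2 cluster (290.5 against 453.9 CPM, log2 ratio 0.64, 0.35 to 0.94) and in the Ltf cluster (271 against 415 CPM, 0.61). The Rrm2 cluster was at 139.8 and 324.8 CPM, on 11 and 57 UMIs, a log2 ratio of 1.22 (0.27 to 2.30). In both libraries Stra6 was somewhat higher in cycling than in other epithelial cells, with log2 ratios of 0.35 (0.09 to 0.62) and 0.52 (0.09 to 0.97). The Rrm2 cluster, where 86.2% of cells were cycling, nevertheless stood below the Ltf cluster in both libraries. Epithelial cells with at least 1 Stra6 UMI were 20.9% in the f/f and 29.9% in the d/d library, and 11.8% and 18.3% when every cell was thinned to 500 UMIs.

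Rdh1, a short-chain dehydrogenase that can oxidise retinol, had 185 UMIs (98.6 CPM) in f/f and 20 UMIs (36.5 CPM) in d/d epithelial cells, a log2 ratio of -1.43 (-2.18 to -0.77). Stromal cells held 93 UMIs (56.1 CPM) and 8 UMIs (18.8 CPM), a log2 ratio of -1.58 (-2.83 to -0.54). Of the stromal cells, 113 lay in the gland-like cluster. The stromal ratio was smaller in size in stromal-like clusters (-0.75, on 28 and 3 UMIs), in stromal cells inside those clusters (-0.60, on 18 and 2) and after thinning to 500 UMIs (-0.87), and none of these passed -1. In the main stromal-like cluster Rdh1 was at 15.5 CPM in f/f (15 UMIs) and 13.6 CPM in d/d (2 UMIs).

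Most of the Rdh1 signal came from the gland-like cluster, with 296 of 531 UMIs of the f/f library. There it was at 384.8 CPM, against 51.9 CPM in the other epithelial-like clusters, a log2 ratio of 2.89 (2.57 to 3.22). Rdh1 also ranked among the leading genes of that cluster, although it was left out of the clustering. When f/f epithelial cells were divided by gland marker UMIs instead, the 149 gland cells had Rdh1 above the rest by 1.82 (1.32 to 2.30) on the log2 scale. The 69 d/d cells of the gland-like cluster held 4 Rdh1 UMIs (79.2 CPM), a log2 ratio of -2.28 (-4.17 to -0.91). In the Ltf cluster the levels were 53.1 and 32.3 CPM, a log2 ratio of -0.71 (-2.28 to 0.59). The Tpx2 cluster was at 55.2 and 36.5 CPM (-0.60, -1.51 to 0.27). The Rrm2 cluster was at 38.1 and 39.9 CPM on 3 and 7 UMIs (0.06, -2.07 to 2.65). These intervals all include 0, so a lower Rdh1 level was not resolved in these clusters. Without the gland-like and Lrp2 clusters the ratio over the remaining epithelial-like clusters was -0.55, on 64 and 31 UMIs.

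Close relatives of Rdh1 share much of its sequence, and how the probes separate them was not examined. Over all cells Rdh16 had 0 UMIs in the f/f and 1 UMI in the d/d library, Rdh16f2 had 5 and 4, and Rdh19 and Rdh7 had none in either.

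Rdh10, the main retinol dehydrogenase of the embryo, had 506 UMIs (269.8 CPM) in f/f and 138 UMIs (251.8 CPM) in d/d epithelial cells. Stromal cells held 232 UMIs (139.9 CPM) and 57 UMIs (134.0 CPM). The log2 ratios were -0.10 (-0.38 to 0.17) and -0.06 (-0.51 to 0.36), and both intervals include 0. Epithelial cells were above stromal cells in both libraries, with stromal over epithelial log2 ratios of -0.95 and -0.91. In f/f cells it was at 668 CPM in the gland-like cluster against 177 CPM in the other epithelial-like clusters, a log2 ratio of 1.92 (1.72 to 2.11), and in d/d cells the log2 ratio was 1.19 (0.54 to 1.79). Dividing f/f epithelial cells by gland markers gave 1.35 for Rdh10, but 0.18 when Syn2, Gulo and Dab1 were left out of the markers, where Rdh1 kept 1.67. Its near-level epithelial ratio covered clusters that differed: in the Ltf cluster Rdh10 was at 153 CPM in f/f and 269 CPM in d/d, a log2 ratio of 0.81 (0.27 to 1.34), while the gland-like cluster was at 668 and 514.5 CPM. Both Rdh1 and Rdh10 were detected in 57 of the 1743 f/f epithelial cells, where Rdh1 was seen in 148 and Rdh10 in 359.

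**Figure D3:**
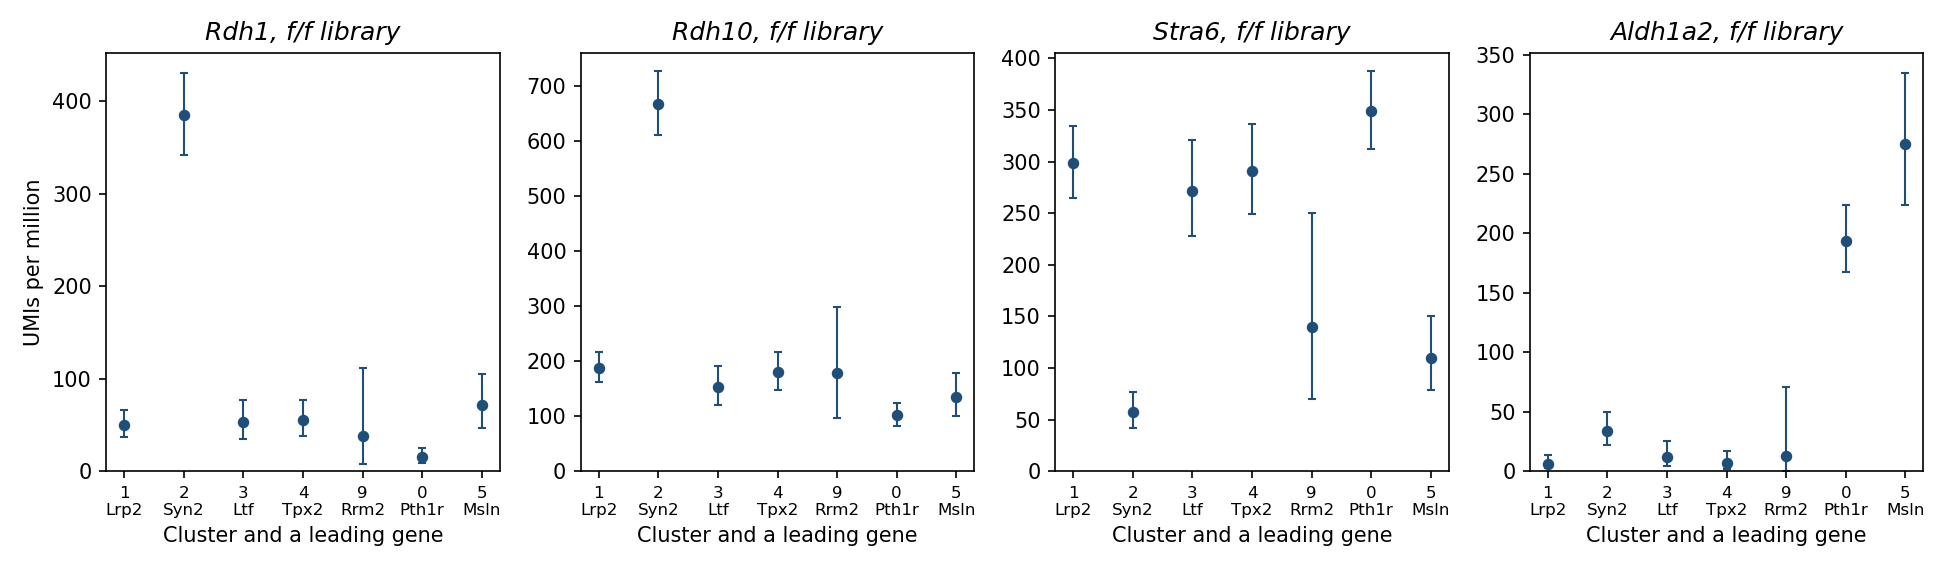
Levels of Rdh1, Rdh10, Stra6 and Aldh1a2 in the f/f library in CPM (vertical axes, each with its own scale) by cluster, labelled with its number and a leading gene; bars are exact 95% Poisson intervals. Rdh1 and Rdh10 stand highest in cluster 2, the gland-like cluster, where Stra6 is the lowest of the 7 clusters drawn, and Aldh1a2 stands highest in clusters 0 and 5.

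Dhrs3, which reduces retinal to retinol and is itself induced by retinoic acid, had 501 UMIs (267 CPM) in f/f and 210 UMIs (383 CPM) in d/d epithelial cells, a log2 ratio of 0.52 (0.28 to 0.76). The stromal counts were 181 UMIs (109 CPM) and 89 UMIs (209 CPM), a log2 ratio of 0.94 (0.56 to 1.31). Dhrs3 was thus higher in the d/d library in both cell types, by less than 2-fold in each. The main stromal-like cluster gave 52.6 CPM in f/f (51 UMIs) and 101.8 CPM in d/d (15 UMIs), a log2 ratio of 0.95 (0.02 to 1.81). The second stromal-like cluster, led by Alkbh2 and Sfrp2, gave 253.8 and 237.9 CPM on 92 and 22 UMIs. Its log2 ratio was -0.09 (-0.84 to 0.59), so the difference was not seen in every stromal-like cluster. Over the stromal-like clusters together it was 0.52. In the gland-like cluster the levels were 246 and 613 CPM, on 189 and 31 UMIs, a log2 ratio of 1.32 (0.72 to 1.87). Dhrs3 was lower in cycling than in other epithelial cells, by log2 ratios of -0.40 in f/f and -0.84 in d/d.

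Aldh1a1, a retinal dehydrogenase that makes retinoic acid, had 50 UMIs (26.7 CPM) in f/f and 43 UMIs (78.5 CPM) in d/d epithelial cells. The log2 ratio was 1.56 (0.93 to 2.17). Over all cells it had 94 UMIs in 86 f/f cells (17.0 CPM) and 105 UMIs in 98 d/d cells (61.3 CPM), and no cell held more than 2. This is the direction opposite to the gland genes that led to its choice: Cxcl15, a chemokine of glandular epithelium, was at 35.0 and 13.4 CPM over all cells, Foxa2, a transcription factor of glands, at 13.4 and 5.84 CPM, and Gulo at 131.8 and 35.0 CPM. Cells with a UMI made up 2.70% (f/f) and 6.85% (d/d) of the epithelial cells, and 1.09% and 4.04% after thinning to 500 UMIs, beside 0.493% and 2.62% of the stromal cells before and 0.372% and 0.714% after thinning. Median depths were 907 and 863 UMIs in epithelial and 777 and 757 UMIs in stromal cells. Levels in the stromal cells were 6.03 and 28.2 CPM on 10 and 12 UMIs, a log2 ratio of 2.23 (0.89 to 3.59). After thinning the stromal ratio was 0.94, on 6 and 3 UMIs, and did not pass 1. The main stromal-like cluster held 1 UMI in each library.

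The higher Aldh1a1 level was spread over several epithelial-like clusters and was not confined to them. The Ltf cluster had 31.4 CPM in f/f and 86.2 CPM in d/d (16 UMIs in each library, log2 ratio 1.46, 0.36 to 2.55). In the Tpx2 cluster it was at 22.7 and 64.8 CPM (14 and 32 UMIs, 1.51, 0.57 to 2.53). In the cluster led by Rrm2, a gene of DNA synthesis, it was at 25.4 and 136.7 CPM on 2 and 24 UMIs, a log2 ratio of 2.43 (0.42 to 5.55). Unlike Rdh1 and Rdh10, Aldh1a1 was not raised in the gland-like cluster of the f/f library, where it stood at 22.1 CPM and a log2 ratio of -0.24 (-1.12 to 0.56) against the other epithelial-like clusters. The ratio was 2.10 (1.18 to 2.99) among epithelial cells that were not cycling and 1.07 (0.15 to 2.01) among those that were. Aldh1a7, a near copy of Aldh1a1 on the same chromosome, had 14 UMIs in each library over all cells. The d/d library held fewer UMIs in all (1712695 against 5517795), so equal counts are a higher Aldh1a7 level there, as for Aldh1a1. Epithelial cells held 6 (f/f) and 8 (d/d) Aldh1a7 UMIs. Reads of the pair may not be fully separated by their probes, and this was not tested.

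Aldh1a3, the third enzyme of this family and known from epithelia, had 5 UMIs (2.67 CPM) in f/f and 42 UMIs (76.6 CPM) in d/d epithelial cells. The log2 ratio was 4.85 (3.51 to 6.54), above 99.99% of the ratios of the 9959 genes measured in these cells. Nothing is read from this rank. The genes were picked from this contrast, and Aldh1a3 reached the minimum UMI count for a ratio only through its d/d UMIs. Over all cells there were 7 UMIs in 7 f/f cells and 69 UMIs in 63 d/d cells, from fewer d/d than f/f cells. Most d/d UMIs were in the Tpx2 cluster (34, 68.9 CPM), the Rrm2 cluster (13, 74.1 CPM) and the Ltf cluster (10, 53.9 CPM), where the f/f library held 2, 1 and 1. None was found in the main stromal-like cluster of either library. Stromal cells held 1 and 5 UMIs, too few for a ratio. Cells with a UMI were 0.287% (f/f) and 6.33% (d/d) of epithelial cells, beside 0.0616% and 1.19% of stromal cells. In the d/d library Aldh1a3 was at 93.3 CPM in cycling and 40.5 CPM in other epithelial cells, a log2 ratio of 1.20 (0.01 to 2.62). The difference between the libraries was present in both kinds of cell, with log2 ratios of 4.22 in cycling and 4.69 in other epithelial cells. Of the 569 d/d epithelial cells, Aldh1a1 was detected in 39, Aldh1a3 in 36 and both in 4. Each gene was thus seen in a few percent of cells at this depth, which does not show that the other cells lack it.

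**Figure D4:**
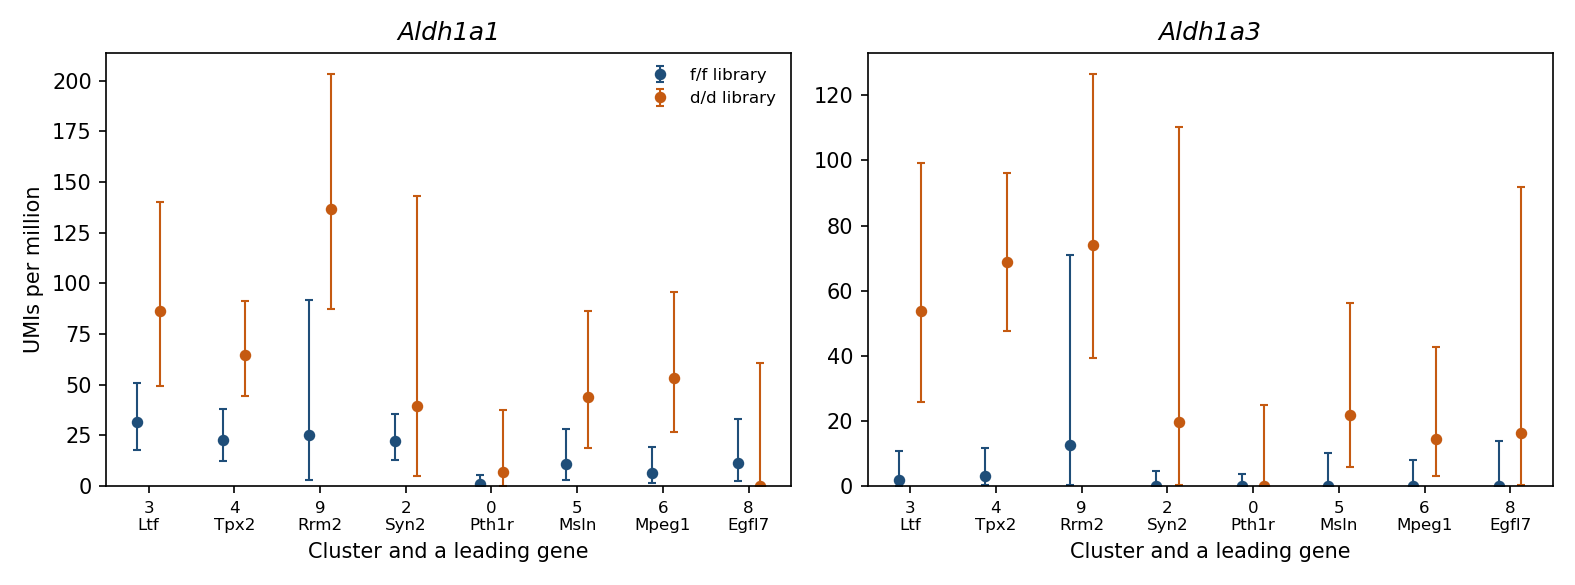
Levels of Aldh1a1 and Aldh1a3 in CPM (vertical axes) in the f/f (blue) and d/d (orange) library by cluster, labelled with its number and a leading gene; bars are exact 95% Poisson intervals. The d/d points of clusters 3, 4 and 9, which are epithelial-like, lie above the f/f points for both genes, and cluster 0, the main stromal-like cluster, lies near 0.

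Aldh1a2, the ALDH1A enzyme of stroma and mesothelium, had 298 UMIs (179.7 CPM) in f/f and 163 UMIs (383 CPM) in d/d stromal cells, a log2 ratio of 1.09 (0.81 to 1.37). Epithelial cells held 17 UMIs (9.06 CPM) and 6 UMIs (10.9 CPM), a log2 ratio of 0.27 (-1.36 to 1.68). Stromal cells were above epithelial cells by log2 ratios of 4.31 (3.61 to 5.11) in f/f and 5.13 (3.98 to 6.60) in d/d. In the main stromal-like cluster Aldh1a2 was at 194 CPM in f/f and 468 CPM in d/d (188 and 69 UMIs). The log2 ratio was 1.27 (0.85 to 1.68), so the difference was as large in that cluster. The second stromal-like cluster, led by Alkbh2 and Sfrp2, was at 88.3 and 86.5 CPM on 32 and 8 UMIs. Its log2 ratio was -0.03 (-1.36 to 1.12), so the difference was not seen in every stromal-like cluster. Over the stromal-like clusters together the ratio was 0.96, on 220 and 77 UMIs, and did not pass 1. The cluster led by the mesothelial genes Msln, Upk1b and Upk3b, which stayed unnamed, was at 275 and 357 CPM, a log2 ratio of 0.37 (-0.10 to 0.84). Stromal cells with a UMI were 14.6% in f/f and 27.9% in d/d, beside 0.746% and 1.05% of epithelial cells. Mesothelial markers in the stromal cells were at 145 CPM in f/f and 287 CPM in d/d, and mitochondrial share, cycling share and lymphoid markers were higher in the d/d stromal cells too (values above). The part of each in the stromal difference was not tested.

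The promoters of Aldh1a1 and Aldh1a2 are shown because these genes were read mainly in different cells, epithelial and stromal, and both were higher in the d/d library. Rarb is shown as the known example of a retinoic acid response element. The sequences are RefSeq's, of build GRCm38.p6, 250 bases before a start site, and the table held entries for 6 of the 9 genes. Aldh1a1 had 2 entries, and the one shown was taken because it holds the octamer. It lies inside the Aldh1a1 gene span given above and not at the first base of that span. Capitals mark the octamer ATGCAAAT in the first 2 and, in Rarb, 2 half-sites in the same direction with 5 bases between them.
Aldh1a1, chr19:20601718-20601967, plus strand: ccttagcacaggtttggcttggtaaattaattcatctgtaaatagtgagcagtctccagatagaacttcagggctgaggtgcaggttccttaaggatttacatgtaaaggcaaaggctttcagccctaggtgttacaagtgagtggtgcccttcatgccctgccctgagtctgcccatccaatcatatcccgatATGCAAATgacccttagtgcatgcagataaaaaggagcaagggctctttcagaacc
Aldh1a2, chr9:71215539-71215788, plus strand: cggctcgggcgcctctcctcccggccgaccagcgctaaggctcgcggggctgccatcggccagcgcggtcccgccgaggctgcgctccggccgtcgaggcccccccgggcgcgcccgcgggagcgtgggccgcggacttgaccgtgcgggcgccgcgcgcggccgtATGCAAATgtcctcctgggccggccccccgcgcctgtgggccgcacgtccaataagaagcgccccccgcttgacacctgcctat
Rarb, chr14:16575477-16575726, minus strand: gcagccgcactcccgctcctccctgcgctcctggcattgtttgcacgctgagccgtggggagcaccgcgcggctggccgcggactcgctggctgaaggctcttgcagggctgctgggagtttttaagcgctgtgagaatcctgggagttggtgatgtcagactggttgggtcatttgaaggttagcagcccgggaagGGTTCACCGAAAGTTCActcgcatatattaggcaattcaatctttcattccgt
Promoter windows of 300 bases, 32851 in all, were searched on both strands. A direct repeat of the half-site AGGTCA, also accepted with G as its first base, T as the third base or both, with 5 bases between the half-sites, was in 0.0974% of them. Of the genes followed, Rarb alone had it, as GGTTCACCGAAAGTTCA from 53 to 37 bases before its start. The octamer was in 1.74% of windows, and lay 56 to 49 bases before the Aldh1a1 start shown and 84 to 77 bases before the Aldh1a2 start. The other Aldh1a1 window did not hold it. The same repeat with a spacing of 1 or 2 bases, present in 0.222% and 0.268% of windows, was in none of the 12 windows of these genes. Other motifs were searched too, so the octamer is 1 of several. An estrogen and a progesterone response element, in 0.0700% and 0.475% of all windows, were in none of the 12. CCAAT was in 6 of the 12, beside 37.4% of all windows. A match of letters is not a binding site.

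Crabp2, which carries retinoic acid to its receptors, was close to the limit of detection. Epithelial cells held 6 UMIs (f/f) and 0 (d/d), with 7 and 2 in stromal cells, and 18 and 6 over all cells, and no ratio was formed for either cell type.

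Rarb, a retinoic acid receptor whose own gene responds to retinoic acid, had 44 UMIs (26.5 CPM) in f/f and 13 UMIs (30.6 CPM) in d/d stromal cells, a log2 ratio of 0.20 (-0.81 to 1.12). In epithelial cells there were 2 and 3 UMIs. Stromal cells were above epithelial cells by log2 ratios of 4.64 (2.70 to 7.73) in f/f and 2.48 (0.62 to 4.93) in d/d. The main stromal-like cluster was at 37.1 CPM in f/f (36 UMIs) and 40.7 CPM in d/d (6 UMIs). A change of less than about 2-fold in stromal Rarb was not detectable at this depth.

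The other genes of the pathway were a list of 48, of which 47 had probes. In epithelial cells 20 reached 20 UMIs, 2 of them past a log2 ratio of 1 upward and 2 past it downward. Of all measured genes, 6.96% passed it upward and 8% downward. The median log2 ratio was -0.26 beside -0.02 for all genes. In stromal cells 20 reached 20 UMIs, 1 higher and 3 lower, beside 5.31% and 5.84% of all measured genes. The median was -0.06 beside -0.04. Nothing is read from counts this small. Tgm2, a transglutaminase induced by retinoic acid in many cells, had 59 and 35 UMIs in epithelial cells, a log2 ratio of 1.02 (0.38 to 1.65).

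Ttr, which carries retinol-binding protein in plasma, had 29 UMIs (f/f) and 0 (d/d) in epithelial cells, a log2 ratio of at most -1.50 with 3 counts taken for the 0. Cyp26a1, which breaks down retinoic acid, had 21 and 3 UMIs there, with a ratio of -1.03 whose interval (-3.42 to 0.71) includes 0. In stromal cells Rdh13, a relative of the retinol dehydrogenases, had 140 and 16 UMIs, a log2 ratio of -1.17 (-2.01 to -0.42). Adh1 and Rxra also passed -1 in stromal cells, on 1 and 3 d/d UMIs, with intervals that include 0.

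The most abundant pathway genes in epithelial cells were Meis1, Dhrs4 and Ncoa7. Meis1, a homeobox gene, was at 450 and 841 CPM (log2 ratio 0.90), Dhrs4, a carbonyl and retinal reductase, at 311 and 190 CPM (-0.71, -1.03 to -0.41), and Ncoa7, a nuclear receptor coactivator, at 262 and 208 CPM (-0.33). In stromal cells they were Meis2 at 344 and 317 CPM, Meis1 at 232 and 327 CPM and the retinoid X receptor gene Rxrb at 203 and 190 CPM. Of the 10 listed targets of retinoic acid, 6 reached 20 UMIs in each cell type. Among these, 1 passed a log2 ratio of 1 upward in epithelial cells, which was Tgm2, and none did so in stromal cells or passed -1 in either. The shares of all genes are given above.

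Likeness of pattern was measured by Pearson's correlation of log2(CPM + 10) over 21 cluster and library points, which share libraries and depth. The genes most like Aldh1a1 were Mmp7 (0.911), Pdgfa (0.874) and Fhod3 (0.855), and those most like Aldh1a2 were Plekhh2 (0.926), Smoc2 (0.918) and Aebp1 (0.916). Rdh1 was most like Tmc7 (0.870), Fam83a (0.832) and Pim3 (0.814), and Rdh10 most like Plekhh1 (0.869), Tns4 (0.839) and Topaz1 (0.836). For Dhrs3 they were Trim14 (0.891), Dnm2 (0.861) and Rffl (0.857), and for Stra6 Spats2 (0.798), Iars (0.798) and Dusp8 (0.783).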

How the data were processed

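The deposited values are raw UMI counts, and per the file headers the authors made them with Cell Ranger 9.0.0. The submitters' processing notes name the builds mm10 and GRCm39 with no role, and the files hold no coordinates. Cells with at least 200 genes and at most 10% mitochondrial UMIs were used. Scrublet in scanpy 1.11.5 called 1 f/f and 5 d/d doublets. Why so few were called was not tested. The calls were not used, and the cells were kept.

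A cell was given the type with the most marker UMIs, needing at least 2 UMIs from at least 2 markers and more than 2 times those of the next type. Clusters were made from 2000 variable genes, without the 9 genes and the pathway list, with 30 principal components, 15 neighbours and Leiden resolution 1 (leidenalg 0.10.2). A cluster was named where the type most frequent among its assigned cells also had the most raised marker set. UMIs were summed by library and cell group. Ratios have the exact conditional binomial interval, sums the exact Poisson interval, and a 0 was replaced by 3 counts and given as a bound. The ratio code was tested on simulated data. No test was run, because cells are not replicates of a genotype. edgeR 4.0.16 gave TMM scaling as an alternative.

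The 9 genes, markers and lists were chosen with earlier results of these data known. All 9 genes are named. Pathway genes are named if they had at least 20 UMIs, a log2 ratio past 1 in size and an interval without 0, or if they were among the 3 of highest CPM in a cell type. Cyp26a1, Adh1 and Rxra were named after their values were seen. A pathway gene that met the rule is not reported here. The likeness rule over cell types left too few points, and clusters took their place after the data were seen.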

Additional observations from a re-analysis of the deposited data

Results flagged for a closer look

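Stra6 was higher in the d/d library in epithelial cells and lower in stromal cells. The log2 ratios differed by 1.45 (1.03 to 1.87, counting error only). The difference between the cell types was not tested, since each genotype had 1 library. In the main stromal-like cluster the stromal log2 ratio was -0.26, with an interval that includes 0.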

How the results depend on the processing

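No ratio whose interval excluded 0 changed sign in any alternative. Of 202 alternative values, 173 moved by less than their counting interval (or, for numbers of genes, by less than 1.5 times) and 29 by more. With all deposited barcodes the epithelial log2 ratio (d/d relative to f/f) was 0.12 for Dhrs3 and 0.39 for Stra6. With Leiden clusters in place of marker assignment the stromal ratio was 0.54 for Rdh10, 0.52 for Dhrs3 and -0.27 for Stra6, and it was -0.32 for Stra6 in stromal cells that lay in stromal-like clusters. Cells thinned to 500 UMIs gave 1.36 for stromal Dhrs3. Without the gland-like and Lrp2 clusters the epithelial ratio was -0.55 for Rdh1 and 0.38 for Rdh10, whose sign had not been resolved. Without cycling cells it was 1.89 for Aldh1a2, 0.93 for Dhrs3 and 0.50 for Stra6. The settings that kept cells in clusters of the same name, left out clusters or left out cycling cells were chosen after seeing the data.

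The stromal over epithelial log2 ratio of Aldh1a2 in f/f cells was 5.59 with stricter assignment and 3.50 with clusters, and in d/d cells 3.63 with looser assignment and 3.45 with clusters. With clusters it was -2.72 for Rdh1 and 0.51 for Stra6 in f/f cells, and -0.56 for Stra6 in d/d cells. Without Syn2, Gulo and Dab1 among the gland markers, gland cells of the f/f library differed from other epithelial cells by 0.18 for Rdh10 and -0.49 for Stra6, so those differences depend on these markers. A minimum of 100 UMIs left 284 genes higher and 280 lower of 6067 in epithelial cells. In stromal cells it left 86 and 174 of 5836. Of the pathway list it left 1 higher and 0 lower of 12 in epithelial cells, and 1 higher and 1 lower of 13 in stromal cells. TMM scaling left 1 pathway gene of 20 higher in epithelial cells. The cause of these changes was not tested.

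Epithelial log2 ratios ranged over all alternatives from 1.34 to 2.10 for Aldh1a1 and from 4.03 to 6.14 for Aldh1a3, and the stromal ratio of Aldh1a2 from 0.96 to 1.15. Depth limits Crabp2, Rarb in epithelial cells, Aldh1a3 in stromal cells and the gland-like cluster of the d/d library. No paired analysis was possible because each genotype had 1 library.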

Other observations

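Aldh1a2 was also read outside the stromal-like and mesothelial clusters. In the unnamed cluster led by Mpeg1 and Cd74, genes of myeloid cells, it had 50 UMIs (109 CPM) in the f/f and 49 UMIs (238 CPM) in the d/d library. In the endothelial-like cluster it had 6 UMIs (22.8 CPM) and 10 UMIs (165 CPM). By marker assignment the Mpeg1 cluster held 144 stromal and 50 myeloid cells. The 36 f/f and 16 d/d cells assigned as myeloid held 0 Aldh1a2 UMIs. The 88 and 27 cells assigned as endothelial held 1 and 0, so these cluster values do not place Aldh1a2 in myeloid or endothelial cells. Dhrs3 was at 344 and 438 CPM in the Mpeg1 cluster, and Aldh1a1 had 3 and 11 UMIs there. In cells assigned as myeloid Dhrs3 was at 764 CPM (23 UMIs in 18 of 36 f/f cells) and 1048 CPM (14 UMIs in 8 of 16 d/d cells). Both values lay above those of epithelial and stromal cells of the same library. Myeloid markers were higher in the d/d stromal cells (values above), and their part in the stromal Dhrs3 difference was not tested.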
